A study of Mus musculus with 18 samples.

Results

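Cluster 6 was one of 5 clusters of isthmus cells, the dividing progenitors of the gastric gland, in single-cell RNA data of the mouse stomach corpus. Its cells were taken by the authors' cluster number. They were 270 of 1285 isthmus cells, of 3993 kept cells in the corpus dataset (dataset 2), and of 4484 kept cells in the series. All 270 cells had been called S or G2/M by the authors' cell cycle scores: 128 were S cells and 142 were G2/M cells. The neighbouring isthmus clusters were cluster 3 (339 cells, all called S), cluster 5 (279 cells, all called G2/M), cluster 9 (218 cells, mostly called G2/M with low scores) and cluster 11 (179 cells, mostly called G1).

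Single cells were taken from untreated wild-type (WT) C57BL/6J male mice, 10 weeks old, and measured by Quartz-Seq2, a plate method in which a sorter places 1 cell in a well and each captured molecule is counted once by its unique molecular identifier (UMI). In dataset 2, corpus gastric units of 3 mice were combined in each of 2 pools, pool K (107 cells of cluster 6, 52 S and 55 G2/M) and pool T (163 cells, 76 S and 87 G2/M), and each pool was sorted into 6 plates of 384 wells as Hoechst33342(+), ToPro3(-) cells. Dataset 1 held corpus and antrum cells of 2 other pools of 3 mice on 6 plates, and it was used here for 1 comparison. The pool was the replicate. The pools were prepared by different operators, so mice and operator cannot be told apart, and plates of a pool are technical repeats.

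The plates of dataset 2 held 10540256 to 12850942 UMIs. Cells of cluster 6 had a median of 45217 UMIs and 7667 detected genes, against 33317 UMIs in cluster 3 and 50083 in cluster 5. The sorter placed 1 event in each well, and no doublet caller was run. In cluster 6, 4 cells had more than 100000 UMIs, all of them called G2/M, beside 1 such cell in cluster 3 and 7 in cluster 5. The 12 plates used the same 384 well barcodes, so a cell was identified by its plate and well. Whether wells with more than 1 cell contributed to cluster 6 was not tested.

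Before DNA replication, E2F factors raise the transcription of cyclin E, of licensing factors such as *Cdt1*, and of the genes that make nucleotides and copy DNA. After replication, a later wave led by *Foxm1* and B-type cyclins brings in the kinases, spindle motors and kinetochore proteins of mitosis. In the corpus gland, dividing isthmus cells lie between the mucous pit cells at the surface and the mucous neck and chief cells at the base.

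The label of the cluster was checked against its markers. *Mki67*, a proliferation protein of chromosome surfaces, stood at 392 CPM in pool K and 369 CPM in pool T, where CPM is UMI counts per 1000000 UMIs after TMM scaling of the summed cells. Cluster 5 was higher (448 and 444), and cluster 3 much lower (36.1 and 39.4). *Stmn1*, which destabilizes microtubules, was at 95 and 91.3 CPM, the highest mean of the 14 largest clusters of dataset 2, the clusters ranked here. *Hmgb2*, a chromatin protein, was at 443 and 453 CPM, second to cluster 5 (538 and 574). *Tcf19*, a chromatin-binding factor and one of the reported progenitor markers, was at 248 CPM in both pools, the highest of these clusters, against 166 and 167 in cluster 3 and 16.5 and 25.7 in cluster 5. *Foxm1* had its highest mean among these in cluster 6 as well, at 78.6 and 79.2 CPM. At least 1 UMI of *Mki67* was found in 99.2% of the S cells and 100% of the G2/M cells of cluster 6, against 10.7% of 702 parietal cells, whose median depth was 47647 UMIs. The levels are unthinned and describe cells that had been clustered on these same genes.

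Markers of other cell types were summed as CPM of all UMIs, without TMM scaling. In cluster 6 the 11 stromal and endothelial markers summed to 2.86 and 1.06 CPM, with *Dcn*, *Acta2* and *Cdh5* at 0 in both pools. The 10 leukocyte markers summed to between 3.05 and 4.38 CPM. The 12 parietal markers summed to 550 and 495 CPM, against 789 and 828 CPM in cluster 5.

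Cells of cluster 6 carried S and G2/M programs together. The deposited scores contrast a cell's S or G2/M genes with other genes of like expression, so they have no unit. The median S score of cluster 6 was 0.542 and its median G2/M score was 0.544. Cluster 3 had medians of 0.372 and -0.079, and cluster 5 had 0.005 and 0.818. Both scores were above 0.2 in 244 of 270 cells of cluster 6 (90.4%), in 5 cells of cluster 3 (1.47%), 12 of cluster 5 (4.30%), 1 of cluster 9 (0.459%) and 0 of 179 cells of cluster 11. The share was 89.8% of S cells (115 of 128) and 90.8% of G2/M cells (129 of 142). In 30 of the 270 cells the scores differed by less than 0.1, so the phase names cut a continuous range.

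**Figure D1:**
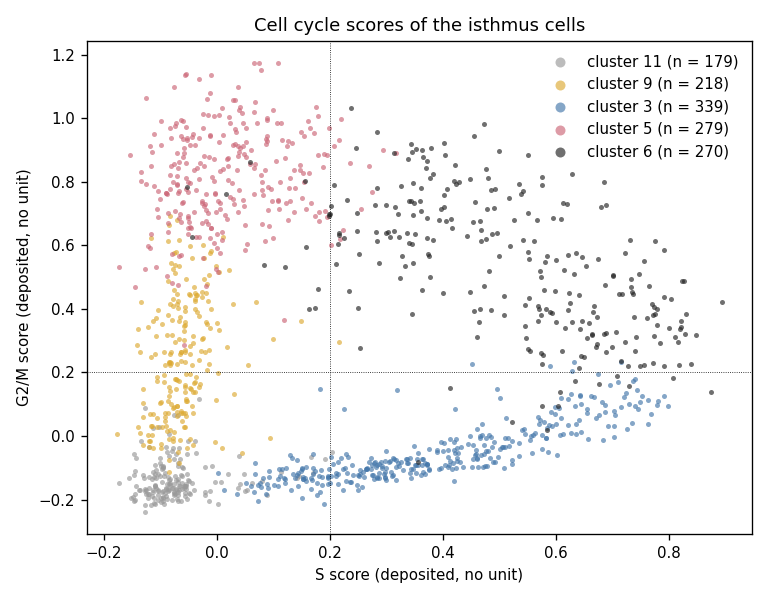
Deposited S score (x axis, no unit) against G2/M score (y axis, no unit) of 1285 isthmus cells, 1 point per cell, coloured by cluster, with dotted lines at 0.2. Of the black points of cluster 6, 244 lie in the upper right, where 5 cells of cluster 3 and 12 of cluster 5 lie.

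Genes outside the scored lists were found in the same cells. *Cdt1*, the licensing factor, and *Ccnb1*, the mitotic cyclin B1, both had a UMI in 65.2% of cluster 6 cells (95% Wilson interval 59.3 to 70.6). The share was 17.1% in cluster 3, 15.8% in cluster 5, 19.7% in cluster 9, 5.03% in cluster 11 and 1.28% in parietal cells. *Ccne1* (cyclin E1) and *Plk1* (polo-like kinase 1) were found together in 66.3% of cluster 6 cells (60.5 to 71.7), against 12.7% in cluster 3, 8.96% in cluster 5, 2.75% in cluster 9, 1.68% in cluster 11 and 0.427% in parietal cells. With every cell thinned to 10000 UMIs, which left out 1 cell of cluster 6, the *Ccne1* and *Plk1* pair was found in 20.8% of cluster 6 cells, 2.69% of cluster 3, 0.717% of cluster 5, 0.459% of cluster 9, 0.562% of cluster 11, and 0 of 701 parietal cells. The thinned *Cdt1* and *Ccnb1* pair stood at 16.7%, against 4.78%, 4.66%, 5.50% and 0.562% in clusters 3, 5, 9 and 11. The intervals cover counting error only, and thinned shares rest on genes near 1 UMI per cell. Scores and clusters were made from expression of the same cells, so genes that vary with the scored genes had to be found together in part. Whether the genes of a pair were found together more often than their separate shares give was not tested.

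Against cluster 3, cluster 6 was higher in the machinery of mitosis. Of 12922 genes, 300 (2.32%) were at least 2-fold higher in both pools and 85 (0.658%) at least 2-fold lower. The higher genes held 32 of 33 spindle and kinesin genes, 30 of 32 kinetochore genes and 20 of 24 regulators of mitotic entry, with median log2 ratios of 2.78, 2.34 and 2.64. In the same order 15, 9 and 8 members of these lists belong to the scored lists, and cluster 3 was all S by those scores. *Iqgap3*, a scaffold protein of dividing cells, was at 106 and 113 CPM against 4.29 and 3.67 in cluster 3, and *Ccnf* (cyclin F) was at 62.6 and 64.6 against 3.75 and 5.96. The largest mean log2 ratios were those of *Mxd3* (6.15), *Hmmr* (4.83), *Kif14* (4.72) and *Nusap1* (4.71), and among lower genes those of *Tmem150a* (-2.30), *2010007H06Rik* (-2.28), *Alkbh2* (-2.06) and *Tcp11l2* (-2.05). Of 34 DNA replication genes 0 were 2-fold apart from cluster 3, with a median log2 ratio of 0.37. The genes that were lower included *Alkbh2*, a DNA alkylation repair enzyme, at 5.13 and 5.63 CPM against 22 and 25.5 in cluster 3, and *Ung*, the uracil DNA glycosylase, at 21.5 and 23.8 against 83.3 and 75.9.

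Against cluster 5, cluster 6 was higher in the machinery of replication. Here 327 of 12922 genes (2.53%) were at least 2-fold higher in both pools and 122 (0.944%) lower. The higher genes held 21 of 23 genes of S phase entry and licensing, 28 of 34 replication genes, and 17 of 24 genes of repair and the S phase checkpoint, with median log2 ratios of 2.06, 1.78 and 1.63. In the same order 6, 14 and 9 members of these lists belong to the scored lists, and cluster 5 was all G2/M by those scores. *Ccne1* was at 58.4 and 57.6 CPM against 0.84 and 2.39 in cluster 5, *Cdt1* at 93.5 and 85.7 against 2.66 and 4.45, and *Mcm5*, a subunit of the replicative helicase, at 211 and 200 against 44 and 44.7. The largest mean log2 ratios were those of *Ccne1* (4.97), *Ccne2* (4.91), *Cdt1* (4.54) and *E2f1* (3.79), and on the lower side *Ccna1* (-3.25), *Pif1* (-3.02), *Kcne2* (-2.91) and *Gm38973* (-2.89). The lower genes held 8 of 24 regulators of mitotic entry and 5 of 33 spindle genes. *Cdc20*, the activator of anaphase, was at 70.8 and 90.7 CPM against 388 and 421 in cluster 5. These ratios describe clusters made from the same genes, so they have no test.

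In 35 of 12922 genes cluster 6 lay between its neighbours, 2-fold above cluster 3 and 2-fold below cluster 5 in both pools. Of these, 16 belong to the scored lists, *Aurka* among them. *Ccnb1* was at 64.9 and 78.6 CPM, between 4.29 and 6.57 in cluster 3 and 315 and 312 in cluster 5. *Plk1* was at 96 and 124 CPM, between 3.62 and 8.25 and 258 and 279. *Aurka*, the Aurora A kinase of spindle poles, was at 77.5 and 82.7 CPM, between 4.82 and 7.33 and 174 and 189. Only 3 genes lay between with cluster 3 highest: *Cdca7*, *Ung* and *Alkbh2*.

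In 22 of 12922 genes cluster 6 was at least 2-fold above both neighbours in both pools. Of these, 9 were members of the gene lists and 4 belong to the scored lists. The share of list members among all genes was not counted, so the 9 is a description only. They included a pair of atypical E2F repressors, *E2f7* at 25.5 and 27.1 CPM (7.5 and 7.49 in cluster 3, 5.04 and 4.67 in cluster 5) and *E2f8* at 134 and 127 CPM (38 and 41.1, 30.4 and 32). *Rrm2*, the regulated subunit of ribonucleotide reductase, was at 368 and 350 CPM against 95.9 and 97.2 in cluster 3 and 67 and 68.1 in cluster 5. *Rad54l*, which acts in homologous recombination, was at 64.9 and 56.8 CPM against 25.4 and 21.8 in cluster 3 and 13.9 and 16.2 in cluster 5. Other list members were *Asf1b* (a histone chaperone), *Brip1* (a repair helicase), *Cenph* (a kinetochore protein) and *Ncapg2* (a condensin subunit). *E2f8*, *Rrm2* and *Brip1* belong to the lists behind the scores, and *E2f7*, *Rad54l*, *Asf1b*, *Cenph* and *Ncapg2* do not.

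The 13 genes above both neighbours that were in no list were named after their values were seen. *Aunip*, *Chtf18*, *Kntc1* and *Lrr1* were found in 148 to 257 of the 270 cells. The interferon-induced genes *Isg15*, *Ifit1* and *Oasl2* came from few cells. *Isg15* was at 17.9 and 18.2 CPM, but only 37 cells held a UMI and 1 cell gave 21.4% of its UMIs. *Ifit1* was found in 13 cells, 1 of which gave 24.1%. In 10 genes cluster 6 was below both neighbours. Of these, *Tcp11l2* was at 2.81 and 3.33 CPM, against 15.1 and 12.8 in cluster 3 and 11.2 and 8.36 in cluster 5.

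Cluster 6 stood farther from clusters 9 and 11. Against cluster 9, 728 genes (5.63%) were 2-fold higher in both pools and 182 (1.41%) lower. Against cluster 11, 824 (6.38%) were higher and 347 (2.69%) lower. The largest ratios against cluster 9 were those of *E2f7*, *Ccne1*, *Brca1* and *Slfn9* (5.24 to 4.82 on the log2 scale) and, lower, *H2bc4*, *Tcp11l2*, *Kif21b* and *Bcl2l14*. Against cluster 11 they were those of *Aurkb*, *Top2a*, *Esco2* and *Neil3* (7.09 to 6.44) and, lower, *Cym*, *Krt20*, *Onecut2* and *S100g*. *Krt20*, a keratin of surface cells, was at 0 and 0.115 CPM in cluster 6 and 39.4 and 24.5 in cluster 11. *Top2a*, the topoisomerase that untangles replicated DNA, was at 582 and 588 CPM in cluster 6, 574 and 589 in cluster 5, 53.8 and 46.5 in cluster 9 and 4.05 and 7.04 in cluster 11. *Ccnb1* went the other way against cluster 9, which had 118 and 105 CPM. In pool K the parietal markers of cluster 9 summed to 1561 CPM (unscaled), against 532 in pool T, and their part in that comparison was not tested.

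Cells with the same phase name were set side by side. Between the S cells of cluster 6 and the S cells of cluster 3, 269 of 11606 genes (2.32%) were 2-fold higher in cluster 6 in both pools and 60 (0.517%) lower, and 31 of 33 spindle genes were among the higher. Between the G2/M cells of cluster 6 and those of cluster 5, 173 genes (1.49%) were higher and 81 (0.698%) lower, and 25 of 34 replication genes were among the higher. Of these genes, 15 spindle and 14 replication members belong to the scored lists. Phases and clusters were made from expression of these same cells, so genes that vary with the scored genes had to differ in part. *Foxm1*, the factor that drives mitotic genes, was at 70 and 65.8 CPM in S cells of cluster 6 against 5.64 and 3.7 in S cells of cluster 3. *Cdt1* was at 37.6 and 31.5 CPM in G2/M cells of cluster 6 against 3.05 and 5.02 in those of cluster 5.

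**Figure D2:**
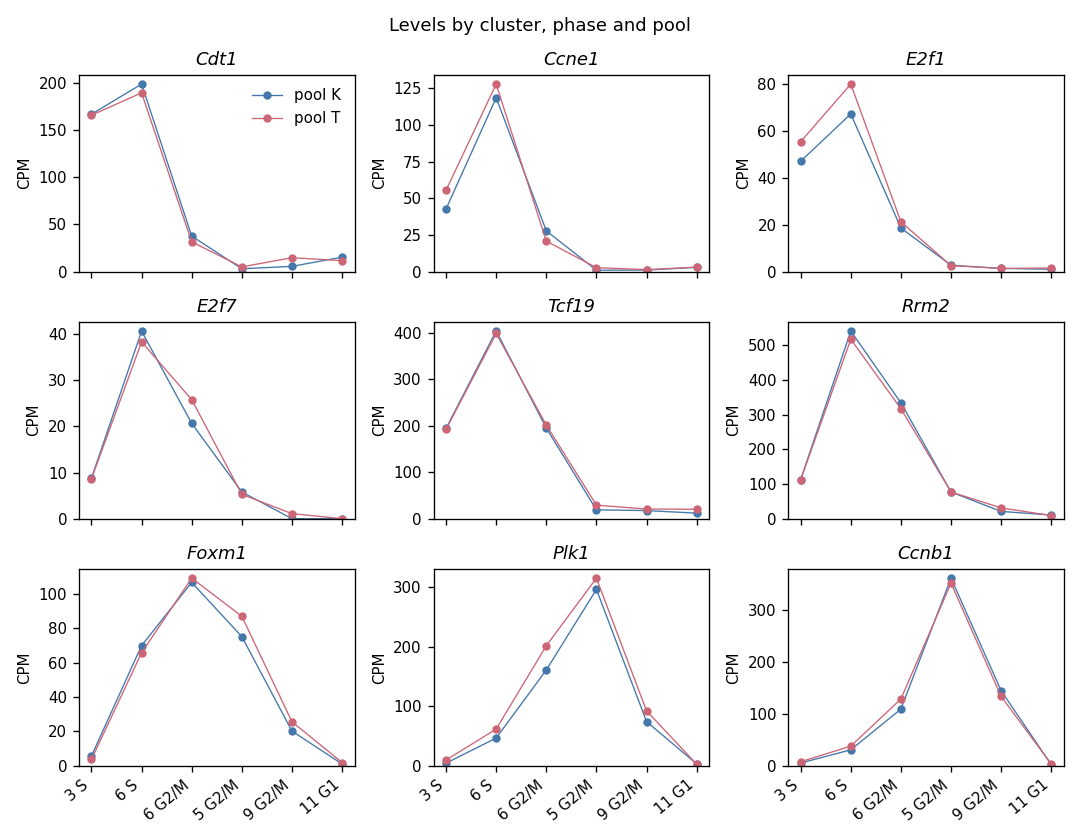
CPM (y axis, linear, each gene on its own scale) of 9 genes in cells of a cluster and phase (x axis), 1 line for pool K and 1 for pool T, with lines only joining the points of a pool. *Cdt1* fell from 199 and 189 CPM in S cells to 37.6 and 31.5 in G2/M cells of cluster 6, *E2f7* peaked in S cells of cluster 6, and *Ccnb1* was highest in G2/M cells of cluster 5.

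Within cluster 6, the S cells were compared with the G2/M cells. UMIs were summed by pool and tested with edgeR's quasi-likelihood test with Benjamini-Hochberg adjustment. The genes behind the scores were in the fit and in the adjustment, which can ease the threshold for the other genes. They were left out of the counts of calls. Of the 11506 other genes, 799 (6.94%) were called at an adjusted p below 0.05. Of these, 431 were higher in S cells (3.75%) and 368 in G2/M cells (3.2%). With the pool as a block the test called 1238 genes, without any 1 of the 4 sums 306 to 431, and with every cell thinned to 10000 UMIs 163. The phase was called from expression of the same cells, so genes that vary with the scored genes had to differ in part, and the p-values measure only the spread between these pools. Median depth was 42596 UMIs in S cells and 49055 in G2/M cells.

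Licensing and origin firing were on the S side. Of 17 members of the S phase entry list that were tested and not scored, 10 were higher in S cells and 1 in G2/M cells, with a median log2 fold of 0.78 against -0.01 for all genes. *Cdt1* was at 199 and 189 CPM in S cells and 37.6 and 31.5 CPM in G2/M cells, a log2 fold of 2.50 ± 0.18 (SE, adjusted p = 3.02e-06). *Ccne1* was at 119 and 128 CPM in S cells and 27.8 and 20.8 CPM in G2/M cells (2.37 ± 0.18, adjusted p = 5.86e-06). At least 1 UMI of *Cdt1* was found in 98.4% of S cells and 62.7% of G2/M cells, and of *Ccne1* in 96.1% and 57.0%. *E2f1*, the activating factor of S phase genes, was at 67.4 and 80.1 CPM against 18.6 and 21.3 (1.88 ± 0.15, adjusted p = 5.86e-06). *Dbf4*, the activator of the kinase that fires origins, was the exception, with 64.7 and 62.7 CPM in S cells and 115 and 110 in G2/M cells (-0.82 ± 0.09, adjusted p = 8.9e-05). *Cdc25a*, a phosphatase that activates cyclin-dependent kinases, was not called, with 64.7 and 77 CPM against 58 and 59.7 (adjusted p = 0.186). *E2f7* narrowly missed the threshold (0.75 ± 0.21, adjusted p = 0.0506).

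The enzymes that copy and repair DNA followed. Of 20 replication genes, 14 were higher in S cells and 0 in G2/M cells (median 0.68). *Mcm3*, a helicase subunit, was at 336 and 351 CPM against 164 and 167 (1.05 ± 0.09, adjusted p = 1.56e-05). *Dna2*, a nuclease that processes replication intermediates, was at 59.9 and 54 CPM against 19.7 and 16.9 (1.65 ± 0.16, adjusted p = 3.86e-05). Of 16 nucleotide supply genes, 12 were higher in S cells and 0 in G2/M cells (median 0.47). *Dck*, the deoxycytidine kinase of the salvage route, was at 181 and 155 CPM against 72.9 and 74.1. *Tk1*, the thymidine kinase of the same route, was at 399 and 378 CPM against 430 and 453 and was not called (adjusted p = 0.431). Of 15 repair and checkpoint genes, 8 were higher in S cells and 0 in G2/M cells, among them *Timeless* at 45.1 and 41.5 CPM against 18 and 17.6 and *Chek1*, the S phase checkpoint kinase, at 56.9 and 63.3 against 31.9 and 34.3. *Brca2* (31.5 and 31.5 against 29.1 and 23.8) was not called.

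The chromatin list was split. Of 13 members, 4 were higher in S cells (*Tcf19*, *Chaf1a*, *Hmga1* and *Dnmt1*) and 1 in G2/M cells (*H2ax*). *Tcf19* was at 404 and 399 CPM in S cells and 195 and 201 in G2/M cells (1.02 ± 0.13, adjusted p = 0.000299). *H2ax*, the histone variant phosphorylated at DNA breaks, was at 241 and 265 CPM against 371 and 442 (-0.68 ± 0.10, adjusted p = 0.000695).

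Mitotic genes were on the G2/M side. Of 16 mitotic entry regulators, 9 were higher in G2/M cells and 1, *Pkmyt1*, in S cells (median -0.64). *Ccnb1* was at 30.6 and 37.7 CPM in S cells and 109 and 129 CPM in G2/M cells (-1.79 ± 0.13, adjusted p = 5.09e-06). *Plk1* was at 46.4 and 61.4 CPM against 161 and 201 (-1.74 ± 0.18, adjusted p = 6.01e-05). At least 1 UMI of *Ccnb1* was found in 68.8% of S cells and 97.9% of G2/M cells, and of *Plk1* in 80.5% and 100%. *Cdkn3*, a phosphatase of cyclin-dependent kinases, was at 9.19 and 7.8 CPM against 43.4 and 52.6 (-2.53 ± 0.38, adjusted p = 0.000896). *Wee1*, the kinase that holds back mitotic entry, was at 93.2 and 119 CPM against 109 and 128 and was not called (adjusted p = 0.468).

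Of 18 spindle and kinesin genes 14 were higher in G2/M cells and 0 in S cells (median -0.78). *Fam83d*, which brings a kinase to the spindle, was at 17.1 and 26.8 CPM against 61.7 and 84.3 (-1.71 ± 0.21, adjusted p = 0.000263), and *Kif22*, a motor of chromosome arms, was at 79.6 and 77.7 against 154 and 174. Of 23 kinetochore and checkpoint genes, 11 were higher in G2/M cells, among them *Bub1b* at 81.8 and 78 CPM against 135 and 161. The 2 kinetochore genes that were higher in S cells were *Cenph* and *Cenpk*, subunits of the constitutive centromere complex, with log2 folds of 0.54 ± 0.14 and 0.46 ± 0.13. Of 14 anaphase genes, 5 were higher in G2/M cells, and of 17 condensin and cohesin genes 5 were higher in G2/M cells and 1, *Ncapg2*, in S cells.

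**Figure D3:**
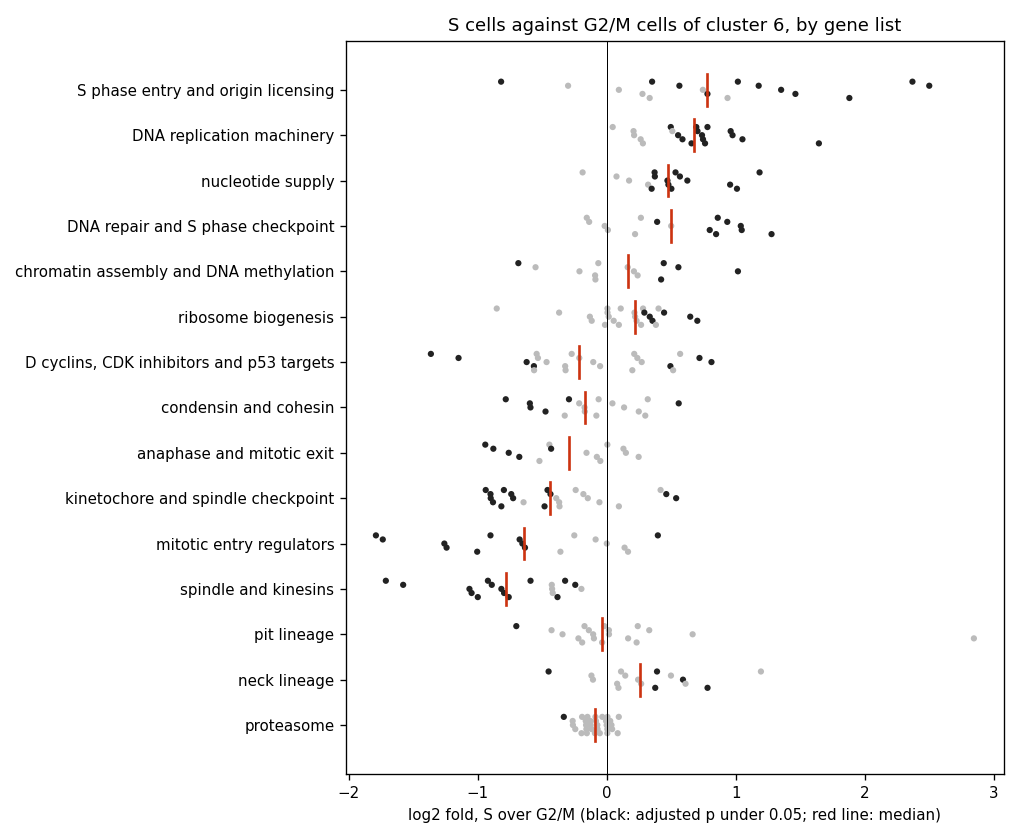
Log2 fold of S over G2/M cells of cluster 6 (x axis) for members of 15 gene lists (rows), 1 point per gene, black where the adjusted p was under 0.05, with a red line at the list median. Medians run from 0.78 for S phase entry to -0.78 for spindle genes.

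The cyclins of G1 and their inhibitors divided between the phases. Of 23 tested members, 3 were higher in S cells and 4 in G2/M cells, against 3.75% and 3.2% of all genes. The 3 higher in S cells were the D cyclins, which start the cycle with Cdk4 and Cdk6. *Ccnd1* was at 194 and 214 CPM in S cells and 122 and 111 CPM in G2/M cells (0.81 ± 0.08, adjusted p = 4.47e-05), and *Ccnd2* was at 235 and 194 against 148 and 114. The 4 higher in G2/M cells were inhibitors of cyclin-dependent kinases (*Cdkn2d*, *Cdkn2c* and *Cdkn1b*) and *Ccng2*, a cyclin linked to arrest. *Cdkn2d* was at 47.7 and 44.6 CPM in S cells and 93.6 and 109 in G2/M cells (-1.15 ± 0.16, adjusted p = 0.000544). *Cdkn1a*, the p53 target p21, differed more between pools (49 in K and 77.3 in T among S cells) than between phases and was not called.

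Lineage and signalling lists were read against the 6.94% of all genes called. Of 19 pit genes 1 was called, *Klf4*, a transcription factor of pit cells, at 326 and 336 CPM in S cells and 538 in G2/M cells of both pools (-0.70 ± 0.08, adjusted p = 0.000159). Of 16 neck genes, 4 were higher in S cells (*Igf1r*, *A4gnt*, *Agr2* and *Pgc*) and 1 in G2/M cells (*Sox9*), against 3.75% and 3.2% of all genes. *Pgc*, which encodes pepsinogen C, was at 48530 and 48010 CPM against 35450 and 38910. Of 20 genes of EGF receptors and the ERK response, *Erbb3* was called (80.9 and 73.6 CPM in S cells, 94.9 and 102 in G2/M cells, adjusted p = 0.0441), and its call was lost without any 1 of the 4 sums (adjusted p 0.0820 to 0.258). No gene was called of 14 TNF and NF-kB genes or of 14 immediate early genes. All 14 immediate early genes were lower in S cells, with log2 folds of -1.52 to -0.088 (median -0.51). Among them *Jun* was at 178 CPM in pool K and 671 CPM in pool T among S cells. Of 24 ribosome biogenesis genes, 6 were higher in S cells, and of 31 proteasome genes 1 was called, in G2/M cells. Of the 14 progenitor markers tested, *Tcf19* was higher in S cells and *Iqgap3*, *Sox2* and *Sox9* in G2/M cells. The call of *Sox2* was lost without the S cells of pool K (adjusted p = 0.178) or the G2/M cells of pool T (0.275), and that of *Sox9* without the S cells (0.230) or the G2/M cells (0.219) of pool T. This list holds markers that the study drew from these samples, so its count is not independent evidence.

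The largest called changes outside the lists were in low genes. *Sox12*, a SoxC transcription factor, was at 36.3 and 34 CPM in S cells and 6.78 and 5.94 in G2/M cells (2.47 ± 0.20, adjusted p = 8.06e-06). *Alkbh2* was at 11.8 and 12.2 CPM against 1.36 and 2.29, and *Nanos1*, an RNA-binding regulator, at 11.4 and 14.3 against 1.7 and 0.914. Other rises were *Slc35g2*, *Nbl1* and *Zik1*, at 3.43 to 7.44 CPM in S cells. On the other side *Slc7a11*, the cystine transporter, had 33 UMIs in G2/M cells against 2 in S cells (ratio 12.4, 95% counting interval 3.16 to 106). Only 22 cells of the cluster held it, 1 cell gave 17.1% of its UMIs and 1 plate 28.6%. *Pif1*, a DNA helicase, was at 0 and 3.12 CPM in S cells and 9.15 and 13.5 in G2/M cells, and *Hyls1* and *Dyrk1b* also rose there.

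Promoters of 4 genes called between S and G2/M cells are printed to show where the letters of a few cell cycle motifs lie. *Cdt1* and *E2f1* were higher in S cells, and *Plk1* and *Ccnb1* in G2/M cells. Whether these genes drive either side was not tested. The sequences are GRCm39, 250 bases before to 50 bases after the start of the canonical transcript in GENCODE vM39, 5′ to 3′ on the gene's strand, with matches in capitals. The E2F letters searched were TTTGGCGC, TTTCCCGC, TTTGGCGG and TTTCGCGC, the CHR letters (cell cycle genes homology region) were TTTGAA and TTCGAA, and the CCAAT box was CCAAT, all on both strands. *Cdt1* lies on the plus strand (chr8:123294498-123294797), *E2f1* on the minus strand (chr2:154411763-154412062), *Plk1* on the plus strand (chr7:121758396-121758695) and *Ccnb1* on the minus strand (chr13:100923067-100923366).
Cdt1: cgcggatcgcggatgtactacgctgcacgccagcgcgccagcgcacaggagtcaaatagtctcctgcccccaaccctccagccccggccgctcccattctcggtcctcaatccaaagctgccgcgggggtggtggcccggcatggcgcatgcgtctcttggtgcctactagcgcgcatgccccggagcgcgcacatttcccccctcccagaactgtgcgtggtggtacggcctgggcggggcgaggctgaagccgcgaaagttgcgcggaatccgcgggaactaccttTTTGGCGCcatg
E2f1: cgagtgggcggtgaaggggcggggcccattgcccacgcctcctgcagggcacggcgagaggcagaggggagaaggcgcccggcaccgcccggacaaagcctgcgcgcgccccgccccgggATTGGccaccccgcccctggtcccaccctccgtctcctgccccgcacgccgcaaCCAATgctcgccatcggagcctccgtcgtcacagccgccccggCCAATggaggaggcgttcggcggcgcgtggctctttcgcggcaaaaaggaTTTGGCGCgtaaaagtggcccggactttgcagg
Plk1: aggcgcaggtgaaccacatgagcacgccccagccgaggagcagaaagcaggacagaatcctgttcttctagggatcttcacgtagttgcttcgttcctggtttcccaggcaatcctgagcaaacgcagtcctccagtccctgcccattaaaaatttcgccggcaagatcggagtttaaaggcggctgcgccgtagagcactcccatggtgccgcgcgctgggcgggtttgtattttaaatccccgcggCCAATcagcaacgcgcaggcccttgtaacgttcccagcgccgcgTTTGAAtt
Ccnb1: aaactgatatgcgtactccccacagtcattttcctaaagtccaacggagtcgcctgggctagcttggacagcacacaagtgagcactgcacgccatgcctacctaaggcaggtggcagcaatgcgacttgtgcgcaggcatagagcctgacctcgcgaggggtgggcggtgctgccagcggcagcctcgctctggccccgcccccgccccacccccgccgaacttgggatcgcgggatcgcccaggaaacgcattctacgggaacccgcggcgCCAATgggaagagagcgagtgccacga

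In this window *Cdt1* and *E2f1* held the E2F letters TTTGGCGC, starting at bases 39 and 18 of the transcript. *E2f1* also held 3 CCAAT boxes, starting 130 (opposite strand), 76 and 33 bases before the start. *Plk1* held a CCAAT box starting 2 bases before the start and the CHR letters TTTGAA at base 43, and *Ccnb1* held a CCAAT box at base 24. Of 21241 promoters, 2.83% held the E2F letters, 18.7% the CHR letters and 39.96% a CCAAT box. Among 408 promoters of genes higher in S cells the shares were 10.3%, 10.5% and 39.95%. Among 358 promoters of genes higher in G2/M cells they were 4.75%, 27.4% and 49.2%, and among 10251 promoters of all genes tested 4.18%, 15.1% and 39.8%. A match is a run of letters and not a bound site.

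The same contrast was made in other mice. Cluster 4-15 of dataset 1 held 53 cells, all called S or G2/M (19 and 34), and was not restricted to cells with both scores high. Of 10606 genes, 184 (1.73%) were called at the same threshold, 82 higher in S cells (0.773%) and 102 in G2/M cells (0.962%). Without any 1 of its 4 sums the test called 62 to 152. Of the 799 genes called in cluster 6, 740 were tested there. Of 386 genes higher in S cells of cluster 6, 366 (94.8%) were also higher in S cells of dataset 1, with a median log2 fold of 0.80, and of 354 genes higher in G2/M cells 28 (7.91%) were. The share over all 9965 genes tested in both was 47.5%. The phases of dataset 1 were also called from the expression of the same cells. Genes that vary with the scored genes therefore had to take the same side in part. Called in both were 63 genes on the S side and 69 on the G2/M side, and 0 genes were called in opposite directions.

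*Cdt1* was at 139 and 127 CPM in S cells of dataset 1 and 4.79 and 11.6 in G2/M cells, a log2 fold of 3.98 ± 0.34 (adjusted p = 4.53e-07). *Ccnb1* was at 12.7 and 13.7 CPM against 198 and 154 (-3.71 ± 0.33, adjusted p = 3.1e-06). *E2f1* was at 70.9 and 55.9 CPM against 1.6 and 3.88 (4.43 ± 0.61, adjusted p = 0.000262). The 3 folds were larger in size than those of cluster 6, 2.50, -1.79 and 1.88, and that difference was not tested. *Ccnd1*, *Cdkn2d*, *Cdkn1b*, *Ccng2* and *Tcf19* were called on the same side as in cluster 6. Other named rises were *Ppp2r1b*, *Slfn9*, *Zfp467* and *Zfp367*, with log2 folds of 2.65, 2.60, 2.49 and 2.44. *Pif1* had 66 UMIs in G2/M cells and 0 in S cells, at least 10.3-fold higher against a floor of 3 UMIs over the S cells, and *Fam83d* was at 5.07 and 7.45 CPM in S cells against 67.1 and 78.4. The further named falls, *Kazald1*, *Sun2*, *Efcab11* and *Parpbp*, had 0 to 3 UMIs in S cells. *Klf4*, *Sox2*, *Sox9* and *Erbb3* were not called in dataset 1, and *Sox2* and *Sox9* had the opposite sign there (0.24 ± 0.37 and 0.20 ± 0.20).

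**Figure D4:**
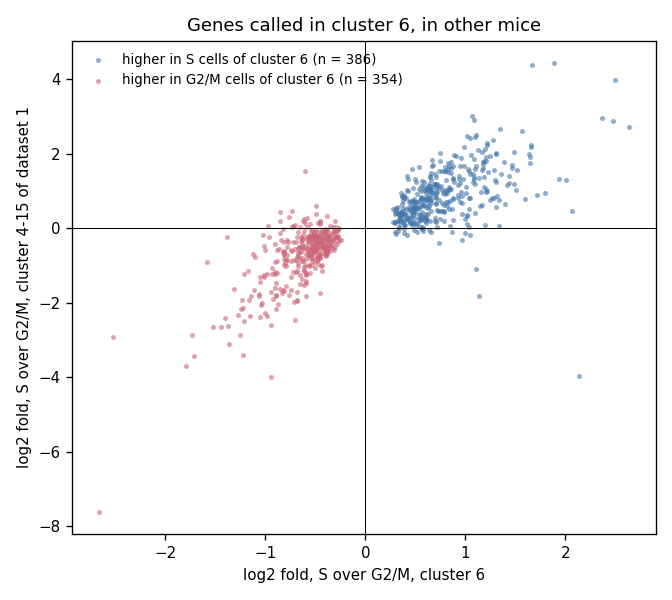
Log2 fold of S over G2/M cells in cluster 6 (x axis) against the same fold in cluster 4-15 of dataset 1 (y axis), 1 point for each of 740 genes called in cluster 6. Of the 386 blue points on the right 366 lie above 0, and of the 354 pink points on the left 28 do.

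Dividing cells of cluster 6 carried lineage mucins. *Muc5ac* is the mucin of pit cells and *Muc6* that of neck cells. A cell was counted as positive above the 95th percentile of parietal cells. By this rule 122 cells (45.2%) were *Muc5ac*-only, 99 (36.7%) *Muc6*-only, 37 (13.7%) positive for both and 12 (4.44%) for neither. Both pools gave the same order, with 47.7% and 43.6% *Muc5ac*-only and 33.6% and 38.7% *Muc6*-only cells in K and T. The thresholds cut a range, since 25 cells lay within 2-fold of the *Muc5ac* threshold and 48 within 2-fold of the *Muc6* threshold. Clusters 5 and 11 had the same order, with 47.7% and 48.6% *Muc5ac*-only and 33.3% and 25.7% *Muc6*-only cells. In cluster 3 the *Muc6*-only cells were more frequent (42.2% against 33.9% *Muc5ac*-only), in cluster 9 the *Muc5ac*-only cells (56.4% against 19.3%).

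The share of S cells was 45.1% (95% Wilson interval 36.5 to 53.9) among *Muc5ac*-only cells and 47.5% (37.9 to 57.2) among *Muc6*-only cells of cluster 6. In the same order the shares were 43.1% and 50% in pool K and 46.5% and 46.0% in pool T. The classes thus did not keep 1 order in both pools. The intervals count cells and not pools, so they cover counting error only. Cells with both mucins were S cells in 62.2% (46.1 to 75.9).

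Between *Muc5ac*-only and *Muc6*-only cells, 2917 of 11634 genes (25.1%) were called (adjusted p below 0.05) in edgeR's quasi-likelihood test. Of these, 1588 were higher in *Muc5ac*-only cells (13.6%) and 1329 in *Muc6*-only cells (11.4%), and counts of list members are read against these shares. The mucins were in the fit and in the adjustment and were left out of the counts. Median depth was 49428 and 39761 UMIs. With every cell thinned to 10000 UMIs 908 genes were called, and without any 1 of the 4 sums 1775 to 2114. The classes were cut by genes of the same cells, so genes that vary with the mucins had to differ in part.

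Pit genes went with *Muc5ac*. Of 18 tested, 14 were higher in *Muc5ac*-only cells and 1, *Ptger4*, lower, with a median log2 fold of 2.63. *Gkn2*, a secreted gastrokine of pit cells, was at 26968 and 18183 CPM in *Muc5ac*-only cells and 194 and 265 in *Muc6*-only cells (6.61 ± 0.56, adjusted p = 5.53e-07). Over cells the median *Gkn2* count was 175 per 10000 UMIs in the first class and 2.21 in the second. *Tff1*, the trefoil peptide of pit mucus, was at 29267 and 26559 CPM against 407 and 387 (6.14 ± 0.18, adjusted p = 8.85e-12). *Klf4* was at 698 and 753 CPM against 149 and 152 (2.27 ± 0.12, adjusted p = 2.86e-09), and the nuclear receptor *Pparg* at 60.3 and 72.6 against 14.5 and 20.3 (1.87 ± 0.21). *Capn9*, a calpain of the stomach, had 139 UMIs in *Muc5ac*-only cells and 0 in the others, at least 29.5-fold higher against a floor of 3 UMIs over the class.

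Neck and chief genes went with *Muc6*. Of 14 neck genes, 11 were higher in *Muc6*-only cells (median -1.51). *Tff2*, the trefoil peptide listed with neck cells, was the exception, at 19756 and 21585 CPM in *Muc5ac*-only and 9345 and 9964 in *Muc6*-only cells (1.10 ± 0.08). *Spdef*, a factor of mucous secretory cells, was at 56.9 and 60.2 CPM against 169 and 171 (-1.54 ± 0.12, adjusted p = 1.96e-07). *A4gnt*, which builds the glycan of gland mucin, was at 24 and 24.1 CPM against 261 and 208 (-3.27 ± 0.24). Of 6 chief genes 5 were higher in *Muc6*-only cells, with *Pga5*, a pepsinogen, at 120 and 152 against 966 and 1109 (-2.93 ± 0.14) and *Cblif*, gastric intrinsic factor, at 13 and 22.9 against 250 and 85.3.

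**Figure D5:**
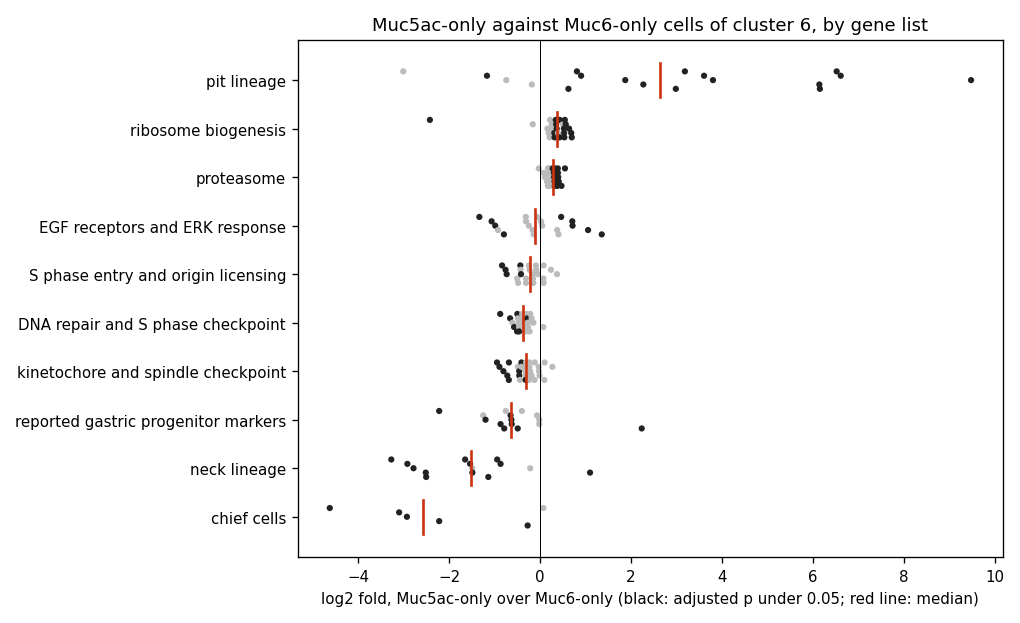
Log2 fold of *Muc5ac*-only over *Muc6*-only cells of cluster 6 (x axis) for members of 10 gene lists (rows), 1 point per gene, black where the adjusted p was under 0.05, with a red line at the list median. Medians were 2.63 for pit, -1.51 for neck and -2.57 for chief genes.

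Most calls in the cell cycle lists were on the *Muc6*-only side. Of 23 S phase entry genes 5 were called, of 34 replication genes 8, of 33 spindle genes 11 and of 32 kinetochore genes 10, all higher in *Muc6*-only cells, against 11.4% of all genes. Of 19 anaphase genes 2 were higher in *Muc6*-only cells and 1, *Pttg1*, in *Muc5ac*-only cells. In the list of D cyclins and inhibitors 5 of 24 were higher in *Muc6*-only cells and 1, *Ccnd2*, in *Muc5ac*-only cells. *E2f1* was at 31.7 and 33.4 CPM in *Muc5ac*-only and 56.7 and 59.3 in *Muc6*-only cells (-0.83 ± 0.14, adjusted p = 0.000633), and *Hjurp*, which loads the centromeric histone, at 89.3 and 83.7 against 166 and 167 (-0.95 ± 0.10). The call of *E2f1* was lost with thinned cells (-0.54, adjusted p = 0.300). *Mki67* (477 and 409 against 480 and 449, -0.07 ± 0.15, adjusted p = 0.796) and *Hmgb2* (-0.02 ± 0.09, adjusted p = 0.924) were not called. Of 15 progenitor markers 8 were higher in *Muc6*-only cells, among them *Lrig1*, an inhibitor of EGF receptors, at 42.4 and 57.8 CPM against 115 and 117 (-1.20 ± 0.15, adjusted p = 3.21e-05). *Aldh1a1* was the 1 marker higher in *Muc5ac*-only cells, at 192 and 178 against 41.5 and 37.8. The marker list holds genes that the study drew from these samples and shares *Sox9* with the neck list. Its count here is therefore not independent evidence either.

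Genes of EGF signalling were called in both directions. Of 20 tested, 5 were higher in *Muc5ac*-only cells and 4 lower, against 13.6% and 11.4% of all genes. The 5 higher in *Muc5ac*-only cells were the receptors *Egfr* and *Erbb3*, the ligands *Tgfa* and *Btc*, and *Phlda1*. *Egfr* was at 33.2 and 26.2 CPM against 23.5 and 14.6 (0.71 ± 0.22, adjusted p = 0.0269), and its call was lost without the *Muc5ac*-only cells of pool K (adjusted p = 0.157) or the *Muc6*-only cells of pool T (adjusted p = 0.446). *Tgfa* was at 41.2 and 43.1 CPM against 28.3 and 24.3 (0.71 ± 0.20, adjusted p = 0.016). *Phlda1* was at 215 and 227 CPM against 101 and 76 (1.36 ± 0.13, adjusted p = 2.24e-06). The 4 lower in *Muc5ac*-only cells were *Spry1*, *Etv4* and *Etv5*, known as targets of ERK signalling, and the ligand *Hbegf*. *Etv5* was at 21 and 21.7 CPM against 41.5 and 34.3 (-0.79 ± 0.21, adjusted p = 0.0115). *Erbb2*, the shared partner receptor, was at 63 and 63.2 CPM against 60.1 and 61.8 and was not called (0.05 ± 0.11, adjusted p = 0.823).

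Ribosome and proteasome genes were on the *Muc5ac* side, where 13.6% of all genes were called, against 11.4% on the *Muc6* side. Of 25 ribosome biogenesis genes, 15 were higher in *Muc5ac*-only cells and 1, *Mycn*, lower, with a median log2 fold of 0.37. *Ncl*, nucleolin, was at 707 and 686 CPM against 498 and 534 (0.43 ± 0.07, adjusted p = 0.000646). Of 31 proteasome subunits 16 were higher in *Muc5ac*-only cells and 0 lower (median 0.28), led by *Psma7* at 318 and 304 CPM against 215 and 211.

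The other genes with the largest rises in *Muc5ac*-only cells had 0 UMIs in *Muc6*-only cells: *Gsdmc3*, *Aox3*, *Misp3*, *Srgap1*, *Ankdd1b* and *Smim5* were at least 20.8, 19.8, 15.9, 9.56, 6.16 and 4.89 times higher. On the other side *Lrp2*, an endocytic receptor, had 61 UMIs against 0, at least 31.9-fold higher in *Muc6*-only cells, but over all 270 cells of the cluster 18 held it and 1 gave 21.5% of its UMIs. For *Ankdd1b* 1 cell gave 18.8% of the UMIs, and for *Gsdmc3* 1 cell gave 14.5% and 1 plate 32.7%. For *St3gal4* 1 plate gave 40.9%. For the other genes named here 1 cell gave 5.36% (*Srgap1*) to 11.4% (*Gabra2*). *Fxyd6* had 84 UMIs against 2, *Gabra2* 26 against 1, *Lox* 42 against 2, *Col9a3* 40 against 2, *Gper1* 39 against 2 and *St3gal4* 57 against 3. *Prelp* was at 1.14 and 0.301 CPM against 25.6 and 18.2 (-4.90 ± 0.70, adjusted p = 0.000125).

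The size of the cluster differed between pools. Cluster 6 was 5.49% of kept cells in pool K and 7.98% in pool T. By plate the share was 4.64% to 6.42% in K (median 5.44%) and 6.52% to 9.83% in T (median 7.89%), with no overlap between 6 and 6 plates (exact permutation test, two-sided, p = 0.00216, the smallest these plates allow). This compares the plates of 1 pool with those of another and not mice. As a share of isthmus cells the ranges overlapped, 16% to 25% in K and 17.4% to 26.8% in T (exact permutation p = 0.0974). The share of S cells within the cluster was 36.8% to 66.7% in K and 34.6% to 61.8% in T (exact permutation p = 0.723). Adjusted over the 3 shares the p-values were 0.00649, 0.146 and 0.723.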

How the data were processed

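Single cells of pooled mouse gastric units were measured by Quartz-Seq2 on 18 plates. The authors demultiplexed reads with bcl2fastq 2.20.0.422, aligned them with STAR to GRCm39 with Gencode annotation, and deposited raw UMI counts per gene and cell, the percent of mitochondrial UMIs per cell, Seurat's S and G2/M scores, and cluster numbers. Per the methods, wells with fewer detected genes than a fixed minimum had been removed. Counts, clusters and phases were used as deposited. Dataset 2 plates held 10540256 to 12850942 UMIs and dataset 1 plates 3054370 to 5346035, so intervals cover counting error only.

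Counts were summed per pool and class and tested with edgeR 4.0.16 (R 4.3.3) by glmQLFit and glmQLFTest, with TMM scaling, filterByExpr, Benjamini-Hochberg adjustment at 0.05, and 1 fit per contrast, which held the isthmus clusters in dataset 2 and, in dataset 1, also the other clusters with at least 10 cells in both pools, non-dividing cell types included, so that these shared in its estimate of the spread. Fold changes have standard errors from the F statistic. Differences between clusters were described as at least 2-fold in both pools, with no test. The phase scores rest on genes of Seurat's S and G2/M lists. The tested genes on either version of these lists, 100 in cluster 6 and 99 in dataset 1, were fitted but not counted as calls. Named genes were the list members and, per contrast, the 8 largest called changes each way where each pool of the higher class held 10 UMIs or more, and between clusters the 4 largest each way, at 20 UMIs or more. Some genes that these rules name are not reported here. The members and the gene lists were chosen with earlier results of these data known. The scripts were tested on simulated data.

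Classes of a pool share mice. The deviations of same-pool sums in the S and G2/M contrast, the mucin contrast and the dataset 1 contrast had correlations of 0.247, 0.221 and 0.109. DESeq2 1.42.0, other filters, thinning, the pool as a block and leaving out each sum were the alternatives. Promoters came from GRCm39 with GENCODE vM39.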

Additional observations from a re-analysis of the deposited data

How the results depend on the processing

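For S against G2/M cells of cluster 6 (799 genes called), DESeq2's Wald test called 319 genes, the pool as a replicate block 1238, plates in place of pools 1628, and thinned cells 163, while leaving out 1 sum gave 306 to 431. For *Muc5ac*-only against *Muc6*-only cells (2917), the Wald test called 1903, thinned cells 908, and leaving out 1 sum 1775 to 2114. In dataset 1 (184), the Wald test called 49, every gene with at least 1 UMI 323, and leaving out 1 sum 62 to 152. With DESeq2 size factors its calls were 110 higher in S and 76 in G2/M cells, against 82 and 102 in the reported fit. The cause of these changes was not tested. The pairing by pool as a block called 3419 genes in the mucin contrast and 219 in dataset 1. It kept 132 of 132 named calls in cluster 6, 169 of 169 in the mucin contrast and 65 of 66 in dataset 1. At 1.5-fold in place of 2-fold, cluster 6 differed from clusters 3, 5, 9 and 11 in 1076, 1222, 2170 and 2533 genes, its S cells from those of cluster 3 in 900, and its G2/M cells from those of cluster 5 in 775. With every gene of at least 1 UMI, its S cells differed from those of cluster 3 in 500. In the mucin contrast with thinned cells *Anln* (0.16), *Psmd1* (-0.010) and *Topbp1* (0.10) turned their sign. Leaving out 1 sum kept 73 to 93 of 132 named calls in cluster 6, 97 to 117 of 169 in the mucin contrast and 28 to 43 of 66 in dataset 1, and thinned cells kept 56 of 125 and 65 of 160 in the first and second. Under the Wald test 92 of 132 named calls were kept in cluster 6, 121 of 169 in the mucin contrast and 24 of 66 in dataset 1. With 2 pools, leaving out a sum leaves a class with 1 sample, which is then assumed to vary like the others. Thinning leaves few UMIs per gene, so low genes could not be followed at that depth.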

Other observations

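The 37 cells of cluster 6 that were positive for both mucins had medians of 4.91 *Muc5ac* and 2.06 *Muc6* UMIs per 10000 UMIs. Their median of *Gkn2*, the pit cell gastrokine, was 2.75, near the 2.21 of *Muc6*-only cells and far from the 175 of *Muc5ac*-only cells. Their medians of *Pgc* and *Tff2* were 511 and 223, against 757 and 87.7 in *Muc6*-only cells and 196 and 202 in *Muc5ac*-only cells. The 12 cells positive for neither mucin had medians of 379 *Pgc* and 229 *Tff2* UMIs per 10000. These values were chosen after the data were seen, and they have no test.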
